A study of Mus musculus with 32 samples.

Results

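The genes described here are 10 genes that lie around Pou2f1 on mouse chromosome 1 and that had been called for a difference between Oct-1 mutant and wild type fibroblasts in these data: Ralgps2, Gas5, Pigc, Vamp4, Atp1b1, Creg1, Mgst3, Nuf2, Rgs4 and Uap1. They are 10 of 18162 genes with a probe set of their own in the series. Every probe set that the array annotation assigns to these symbols or to their older synonyms was taken, which gave 30 of 45265 probe sets, all 30 on the array type called array A here and 0 on array B. A probe set is a group of short oligonucleotides that report 1 transcript or a part of it, and its value is given on the log2 scale, so that a difference of 1 is a doubling. Of the 30 probe sets, 22 passed the filter on low values (a mean of at least 4.96 over the 16 arrays) and 8 did not. Because the averaged genotype difference chose the genes, that difference is given below as a description, without a test.

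RNA came from early-passage primary mouse embryonic fibroblasts, which are connective tissue cells grown out of embryos and used before they are established as a line. The 4 groups were irradiated Oct-1 mutant, unirradiated Oct-1 mutant, irradiated wild type and unirradiated wild type cells, with 4 extracts each, and each extract was read on both array types. Not given in the sources used here were the mutant allele, the strains, the embryos behind each extract, the radiation dose and the time after irradiation. Because the origin of the replicates is unstated, p-values measure only the spread between these extracts, which may be technical.

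Oct-1, the product of Pou2f1, is a widely expressed transcription factor whose POU domain binds the octamer ATGCAAAT in promoters and enhancers. With 0 probe sets annotated to Pou2f1, the level of the mutated gene is not analysed here. When an altered allele is bred onto another strain, a stretch of chromosome around it is inherited with it, and genes in that stretch can carry sequence variants of the donor strain. An oligonucleotide array reads such a variant through hybridisation as well as through transcript level. The altered Oct-1 allele and DNA linked to it cannot be told apart for genes at this position in a comparison of 2 genotypes. Xist on the X chromosome and Eif2s3y on the Y chromosome also separated the 2 genotypes without overlap, with values given further on.

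Promoters of 3 of the genes are shown because these genes carry the results that follow. Rgs4 and Gas5 were the 2 whose genotypes did not overlap on the tested probe sets of their own, and Creg1 is the nearest of the 10 to Pou2f1. Each sequence is the 250 bases before an annotated start, 5′ to 3′ on the gene's own strand, from RefSeq on build GRCm38.p6. Capitals mark an octamer.
Rgs4 (chr1:169747643-169747892, minus strand): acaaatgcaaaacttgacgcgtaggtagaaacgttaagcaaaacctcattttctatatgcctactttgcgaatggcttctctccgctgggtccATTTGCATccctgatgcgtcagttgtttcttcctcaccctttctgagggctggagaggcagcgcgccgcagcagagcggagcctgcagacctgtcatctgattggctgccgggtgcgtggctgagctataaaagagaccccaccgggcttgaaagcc
Gas5 (chr1:161034916-161035165, plus strand): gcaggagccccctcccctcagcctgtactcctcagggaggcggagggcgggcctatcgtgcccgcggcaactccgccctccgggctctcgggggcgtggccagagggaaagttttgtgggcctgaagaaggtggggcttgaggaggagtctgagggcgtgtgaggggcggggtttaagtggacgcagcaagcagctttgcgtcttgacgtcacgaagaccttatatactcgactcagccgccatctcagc
Creg1 (chr1:165763508-165763757, plus strand): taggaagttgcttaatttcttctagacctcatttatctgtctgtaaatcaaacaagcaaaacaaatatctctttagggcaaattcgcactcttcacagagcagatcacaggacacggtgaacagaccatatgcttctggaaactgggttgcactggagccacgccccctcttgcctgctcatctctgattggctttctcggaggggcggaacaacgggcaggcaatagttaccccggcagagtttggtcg
The octamer ATGCAAAT was searched on both strands, where it reads ATTTGCAT on the opposite one, in windows of 300 bases that ran from 250 before each start to 50 after it. All 10 genes matched the RefSeq promoter table, with 13 windows between them. Of these, 1 window held the octamer, that of Rgs4, where it reads ATTTGCAT with its first base 157 bases before the start. The octamer was present in 570 of 32851 mouse promoter windows (1.74%) and for 532 of 27025 genes (1.97%). A match of letters is not a binding site, and no binding was measured here.

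Gas5 and Rgs4 were the 2 of the 10 genes whose mutant and wild type extracts did not overlap on the tested probe sets of their own, in opposite directions. On the brightest probe sets Rgs4 had the largest difference, while Nuf2 (-0.76) and Gas5 (-0.70) were of like size. Gas5, a noncoding RNA gene whose introns hold small nucleolar RNAs and whose transcript is known to accumulate in growth-arrested cells, was lower in Oct-1 mutant cells. Rgs4, which encodes a GTPase-activating protein that shortens signalling by Gi and Gq proteins, was higher in Oct-1 mutant cells. For 6 of the 22 tested probe sets the 8 mutant and the 8 wild type extracts did not overlap, and these 6 were the 4 probe sets of Gas5 and the 2 tested probe sets of Rgs4. Over array A, the same lack of overlap was found for 2.66% of tested probe sets, and nothing is read from the comparison because genotype chose the genes.

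The brightest Gas5 probe set read 11.55, 11.68, 11.67 and 11.56 in irradiated mutant cells and 11.44, 11.54, 11.39 and 11.46 in unirradiated mutant cells. In wild type cells it read 12.15, 12.1, 12.41 and 12.36 after irradiation and 12.12, 12.21, 12.21 and 12.33 without it. All 8 mutant values lay below all 8 wild type values, and the averaged genotype difference was -0.70 (SE 0.05), or 1.62-fold lower. A much larger difference came from the probe set next to the dimmest, which read 7.72, 7.59, 7.49 and 7.26 in irradiated and 8.04, 7.75, 7.81 and 7.34 in unirradiated mutant cells. Its wild type values were 9.79, 9.54, 9.32 and 9.35 with irradiation and 10.21, 10.13, 9.55 and 9.56 without. The gap between the genotypes on this probe set was more than 1 log2 unit wide at its narrowest, with a difference of -2.05 (SE 0.13). The other 2 probe sets, the one next to the brightest and the dimmest, gave differences of -0.82 (SE 0.07) and -1.88 (SE 0.15). The 4 Gas5 probe sets therefore shared a direction but fell into a brighter pair with differences under 1 and a dimmer pair with differences near 2. A further probe set, annotated to both Gas5 and the intronic small nucleolar RNA Snord47 and not counted among the 30, differed by -0.49 (SE 0.10). On that shared probe set the genotypes overlapped, at 8.11 to 8.72 in mutant and 8.66 to 9.32 in wild type extracts. Its difference was -0.68 within replicates 1 and 2 and -0.3 within replicates 3 and 4. Whether sequence variants under the oligonucleotides have a part in the unequal sizes was not tested.

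The brightest Rgs4 probe set read 8.87, 8.9, 8.95 and 8.65 in irradiated mutant cells and 9.33, 9.37, 8.89 and 9.17 in unirradiated mutant cells. Wild type values were 6.8, 7.19, 7.21 and 7.21 after irradiation and 7.59, 7.95, 7.39 and 7.57 without it. Every mutant extract was above every wild type extract, and the averaged difference was 1.65 (SE 0.10), or 3.15-fold higher. The other tested probe set ranged over 7.5 to 8.44 with a median of 7.83 in mutant cells and over 6.45 to 7.33 with a median of 6.72 in wild type cells, a difference of 1.13 (SE 0.15). The dimmest had a mean of 4.89 and was left out by the filter. Its mutant values reached 6.06, 5.0, 6.95 and 6.36 in replicates 1 and 2 of the irradiated and unirradiated groups and lay between 4.51 and 4.62 in replicates 3 and 4. Wild type values of this dimmest probe set lay between 4.09 and 5.17. The difference of replicates 1 and 2 was 1.44 and that of replicates 3 and 4 was 0.32, so this probe set showed the Rgs4 difference mainly in the first pair of replicates.

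**Figure D1:**
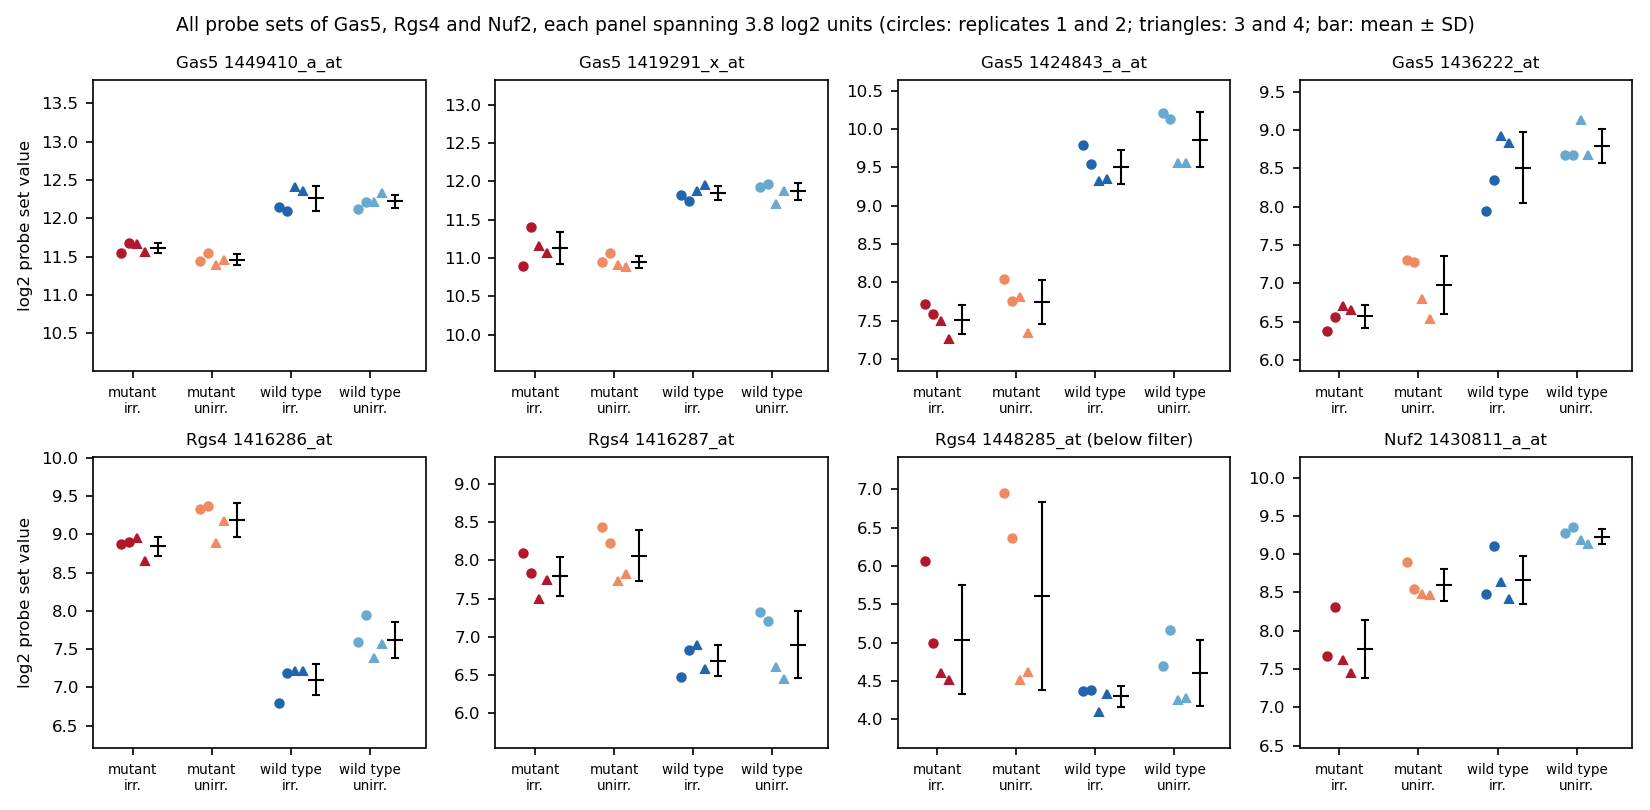
Log2 values of all probe sets of Gas5, Rgs4 and Nuf2 in the 16 extracts on array A, in irradiated and unirradiated Oct-1 mutant and wild type cells; points are extracts and bars are group means ± SD (n = 4). Each panel spans the same number of log2 units, and the genotypes do not overlap in the 4 Gas5 panels and the first 2 Rgs4 panels.

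Nuf2 encodes a subunit of the Ndc80 complex, which holds spindle microtubules at the kinetochore of dividing chromosomes. It was measured by 1 probe set, so its probe sets could not be compared. The values were 7.67, 8.31, 7.62 and 7.45 in irradiated mutant cells and 8.9, 8.54, 8.48 and 8.47 in unirradiated mutant cells. In wild type cells they were 8.48, 9.11, 8.63 and 8.41 after irradiation and 9.27, 9.35, 9.18 and 9.13 without it. The genotypes overlapped over all 16 extracts, because irradiated wild type values reached down to those of unirradiated mutant cells. Within the unirradiated groups the highest mutant value, 8.9, was below the lowest wild type value, 9.13, and the averaged genotype difference was -0.76 (SE 0.13).

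The other 7 genes had averaged genotype differences under 0.5 log2 units on every tested probe set, and their genotypes overlapped on each of them. Creg1, a secreted and lysosomal glycoprotein named as a repressor of E1A-stimulated genes, lies 2 measured genes before Pou2f1. Its brightest probe set read 8.2, 8.46, 8.3 and 8.49 in irradiated and 8.06, 8.24, 8.08 and 8.18 in unirradiated mutant cells, against 8.02, 7.99, 8.13 and 8.24 in irradiated and 7.8, 7.79, 7.98 and 7.92 in unirradiated wild type cells. Mutant values were higher within each irradiation state except that irradiated mutant replicate 1 lay below irradiated wild type replicate 4, with a difference of 0.27 (SE 0.06). The second Creg1 probe set differed by 0.41 (SE 0.11) in the same direction.

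Atp1b1, the beta subunit that brings the sodium and potassium pump to the cell surface, was covered by 5 tested probe sets, more than any other of the genes. All 5 were lower in mutant cells, by differences of -0.36, -0.37, -0.40, -0.25 and -0.11, listed in order of falling brightness. The brightest ranged over 9.43 to 9.77 with a median of 9.52 in mutant cells and over 9.64 to 10.14 with a median of 9.96 in wild type cells. On 4 of the 5 probe sets the difference within replicates 3 and 4 was larger than within replicates 1 and 2, as on the brightest, where it was -0.47 and -0.25.

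Uap1 joins UTP and N-acetylglucosamine phosphate in the last step towards UDP-GlcNAc, the sugar donor of glycoproteins. Its brightest probe set ranged over 10.12 to 10.55 with a median of 10.26 in mutant cells and over 9.93 to 10.13 with a median of 10.06 in wild type cells, a difference of 0.24 (SE 0.06). That difference was 0.35 within replicates 1 and 2 and 0.13 within replicates 3 and 4. The 2 dimmer tested probe sets differed by 0.18 and 0.34 and were not called, although the block for the replicate number, described below, called the second of them, while the 2 below the filter had differences of 0.42 and 0.10, so all 5 pointed the same way. Mgst3, a membrane-bound glutathione transferase and peroxidase, ranged over 9.42 to 9.8 with a median of 9.6 in mutant cells and over 8.95 to 9.55 with a median of 9.35 in wild type cells, a difference of 0.25 (SE 0.07). The lowest wild type value, 8.95 in unirradiated replicate 3, stood below the other 3 of its group, which lay between 9.32 and 9.55. A second Mgst3 probe set, with a mean of 2.82, was below the filter and differed by 0.03.

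Pigc is a subunit of the enzyme that starts the synthesis of the glycolipid anchors of surface proteins. Its tested probe set ranged over 8.26 to 8.94 with a median of 8.72 in mutant cells and over 7.85 to 8.5 with a median of 8.42 in wild type cells, a difference of 0.35 (SE 0.09). The other Pigc probe set, with a mean of 4.03, was below the filter and differed by -0.05. Ralgps2, an exchange factor for Ral GTPases, ranged over 5.12 to 5.62 with a median of 5.36 in mutant cells and over 4.76 to 5.14 with a median of 5.01 in wild type cells, a difference of 0.36 (SE 0.08). That difference was 0.53 within replicates 1 and 2 and 0.19 within replicates 3 and 4, and 2 further Ralgps2 probe sets were below the filter with differences of 0.29 each.

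Vamp4 was the gene on which the probe sets disagreed. It encodes a SNARE protein of vesicles that move between endosomes and the trans-Golgi network. The called probe set ranged over 5.45 to 6.35 with a median of 5.91 in mutant cells and over 5.09 to 5.63 with a median of 5.49 in wild type cells, which made it higher in mutant cells by 0.47 (SE 0.13). Its difference was 0.27 within replicates 1 and 2 and 0.67 within replicates 3 and 4. The brightest probe set ranged over 8.88 to 9.27 with a median of 9.05 in mutant cells and over 9.08 to 9.41 with a median of 9.16 in wild type cells, a difference of -0.13 (SE 0.06) that was not called. A probe set below the filter differed by 0.05. Of the 6 genes with more than 1 tested probe set, the other 5 (Gas5, Atp1b1, Creg1, Rgs4 and Uap1) had the same sign on each of their tested probe sets.

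**Figure D2:**
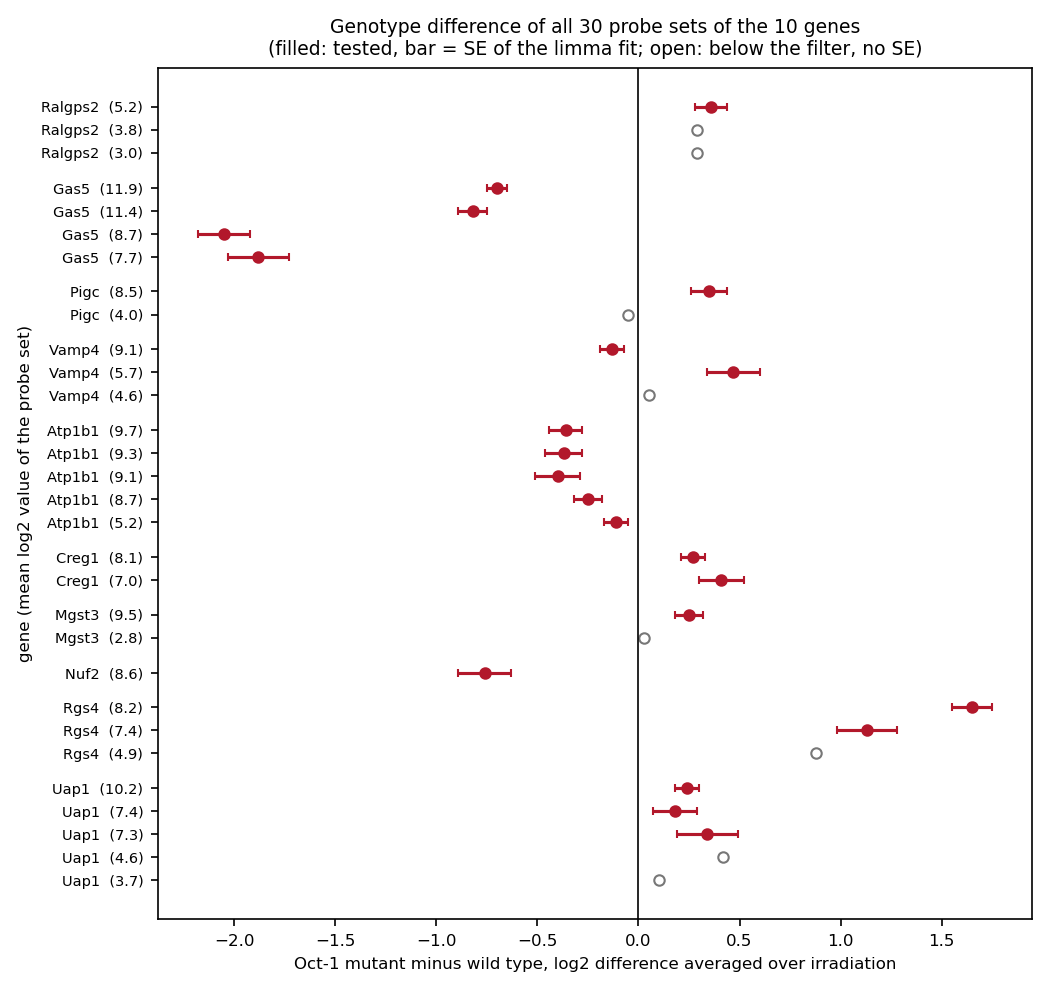
Averaged genotype difference (Oct-1 mutant minus wild type, log2) of all 30 probe sets, grouped by gene in chromosome order with each probe set's mean log2 value in brackets; bars are the SE of the limma model, and open points are the 8 probe sets below the filter. Probe sets of a gene share their sign among those tested except for Vamp4.

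By the call used here, an adjusted p under 0.05 in limma over all tested probe sets of array A, 18 of the 22 tested probe sets and 10 of the 10 genes were called for the averaged genotype difference, 7 genes higher and 3 (Gas5, Atp1b1 and Nuf2) lower in mutant cells. Over array A, 10.6% of tested probe sets were called, 6.57% higher and 4.02% lower, and 10.5% of the 12500 tested genes of both array types had a called probe set. The rule fixed the count for the 10 genes, and nothing is read from it. The called probe set nearest the threshold was that of Mgst3, with an adjusted p of 0.0415 in limma, and the nearest one outside was a Uap1 probe set at 0.169. The brightest tested probe sets had a median genotype difference of 0.24, and the median over all tested probe sets of array A was 0.00.

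Split by irradiation, Gas5, Rgs4 and Nuf2 were called in irradiated cells, with 3.8% of array A called. Gas5 and Rgs4 were called in unirradiated cells, with 3.87% of array A called. The differences were close in the 2 states for Gas5, -0.64 in irradiated and -0.76 in unirradiated cells, and for Rgs4, 1.74 and 1.57. With the replicate number as a block, which removes shifts shared by extracts of the same number, 7 genes were called in irradiated cells against 10.4% of array A, and 8 in unirradiated cells against 11.1%. The block also raised the count over all probe sets, and because genotype chose the genes nothing is read from their counts in either state.

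**Figure D3:**
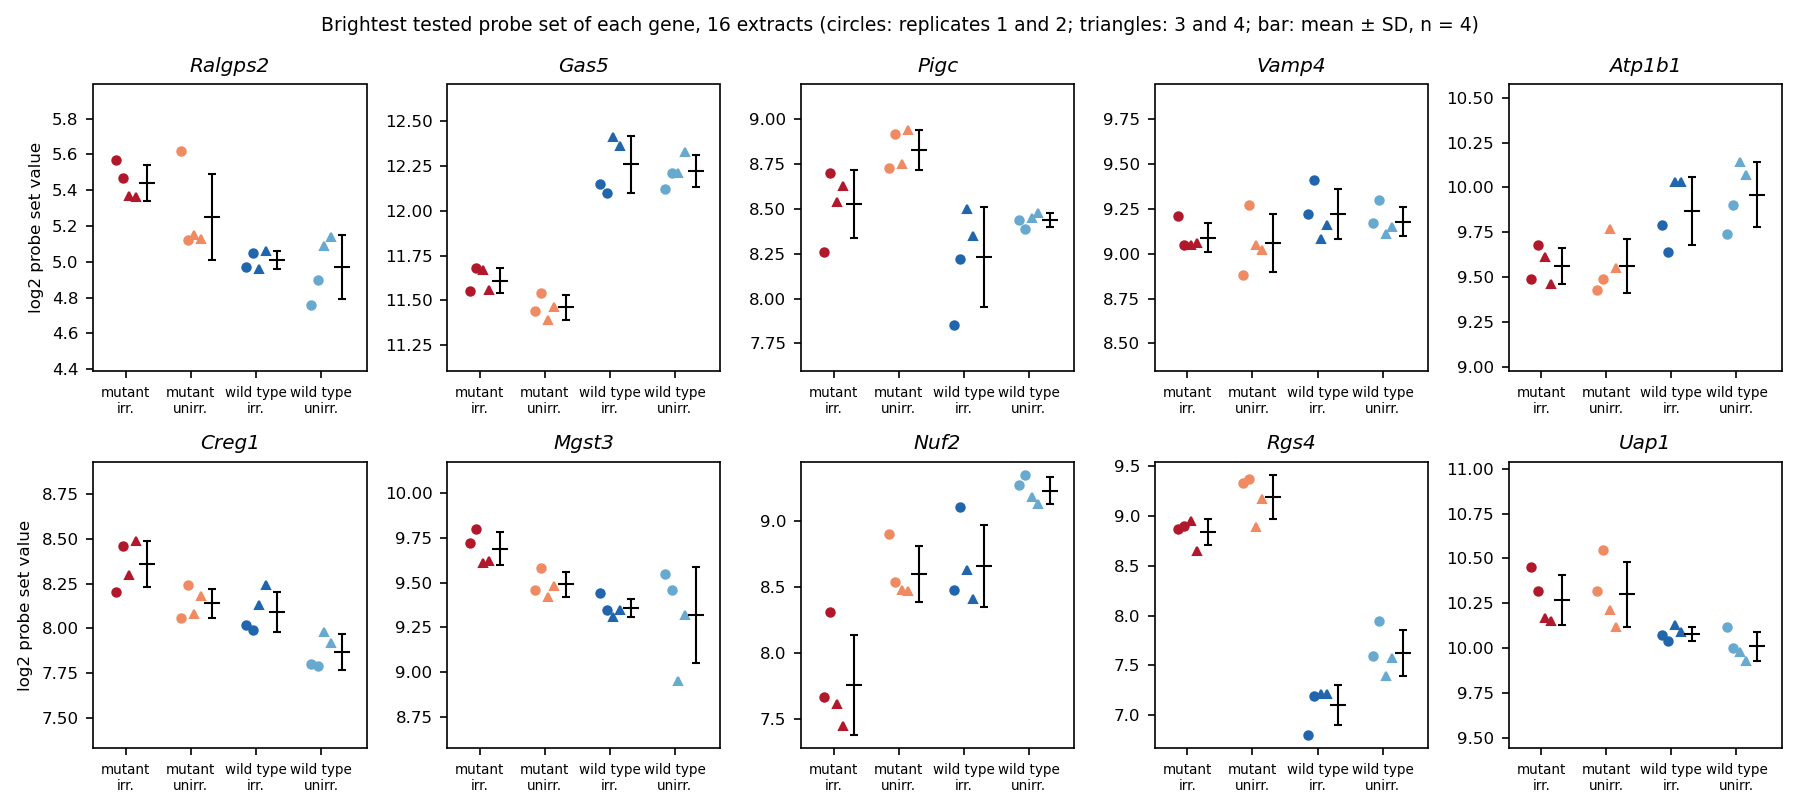
Log2 value of the brightest tested probe set of each of the 10 genes in irradiated and unirradiated Oct-1 mutant and wild type cells; circles are replicates 1 and 2, triangles replicates 3 and 4, and bars are means ± SD (n = 4). The vertical scale differs between panels, and the groups of the 2 genotypes are apart for Gas5 and Rgs4.

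Irradiation was not used to choose the genes, and its effect was tested over all probe sets of array A. Averaged over genotype, 3 of the 22 tested probe sets were called, 1 in each of 3 genes: Nuf2 and Rgs4 fell and Creg1 rose. Over array A, 12.8% of tested probe sets were called, 7.38% higher and 5.47% lower. Nuf2 had a mean of 8.21 in irradiated and 8.92 in unirradiated cells, a fall of 1.63-fold (log2 difference -0.71, SE 0.13, adjusted p = 0.00138 in limma). Rgs4 had a mean of 7.97 in irradiated and 8.41 in unirradiated cells on its brightest probe set, a fall of 1.35-fold (-0.44, SE 0.10, adjusted p = 0.00717 in limma). The second Rgs4 probe set differed by -0.24 and did not pass (adjusted p = 0.34 in limma), at -0.50 within replicates 1 and 2 and 0.02 within replicates 3 and 4. Creg1 had a mean of 8.23 in irradiated and 8.01 in unirradiated cells, a rise of 1.16-fold (0.22, SE 0.06, adjusted p = 0.0274 in limma), and its second probe set gave 0.21 without passing (adjusted p = 0.218 in limma), though it was called with the replicate block (adjusted p = 0.044 in limma).

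The 3 responses did not have the same standing across the pairs of replicates. Nuf2 differed by -0.62 within replicates 1 and 2 and by -0.79 within replicates 3 and 4 and was called in each (adjusted p = 0.0293 and 0.000326 in limma). Rgs4 differed by -0.62 within replicates 1 and 2 (adjusted p = 0.00431 in limma) but by -0.25 within replicates 3 and 4, where it was not called (adjusted p = 0.148 in limma). Creg1 differed by 0.19 and 0.25 in the 2 pairs and was called in neither (adjusted p = 0.202 and 0.0791 in limma). The Creg1 call was also lost, with adjusted p of 0.052 to 0.0593 in limma, without any 1 of 8 extracts: mutant irradiated replicates 2 and 4, mutant unirradiated 1 and 3, wild type irradiated 3 and 4, and wild type unirradiated 1 and 2.

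In Oct-1 mutant cells alone, Nuf2 was the only one of the 10 genes called for irradiation, at -0.84 (SE 0.18, adjusted p = 0.0113 in limma). That was 1 of the 22 probe sets, with 4.65% of array A called. In wild type cells alone, Rgs4 was the only one, at -0.52 (SE 0.14, adjusted p = 0.0445 in limma), again 1 of the 22 probe sets, with 3.84% of array A called. Nuf2 differed by -0.58 in wild type cells (adjusted p = 0.0958 in limma), and Rgs4 by -0.35 in mutant cells (adjusted p = 0.185 in limma). The Rgs4 call in wild type cells was lost (0 of the 10 genes called) without any 1 of 10 extracts: mutant irradiated replicates 1 and 3, mutant unirradiated 1 and 4, wild type irradiated 1, 3 and 4, and wild type unirradiated 1, 2 and 4. These calls in single genotypes do not show that the genotypes responded differently, which the interaction term tests. For the interaction, irradiation effect in mutant cells minus that in wild type cells, 0 of the 22 probe sets and 0 of array A (0%) were called in limma, and 0 of the 22 and 147 of 13582 had an unadjusted p under 0.05. The 147 are fewer than a threshold of 0.05 gives where nothing differs, so the fit without a block may miss differences of response. The reason was not tested. The interaction estimates of the 22 lay between -0.26 and 0.20, with SEs of 0.10 to 0.30, so differences of response of that order were not detectable here. With the replicate block, 0 of the 22 and 0 of array A were called, with SEs of 0.09 to 0.28.

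**Figure D4:**
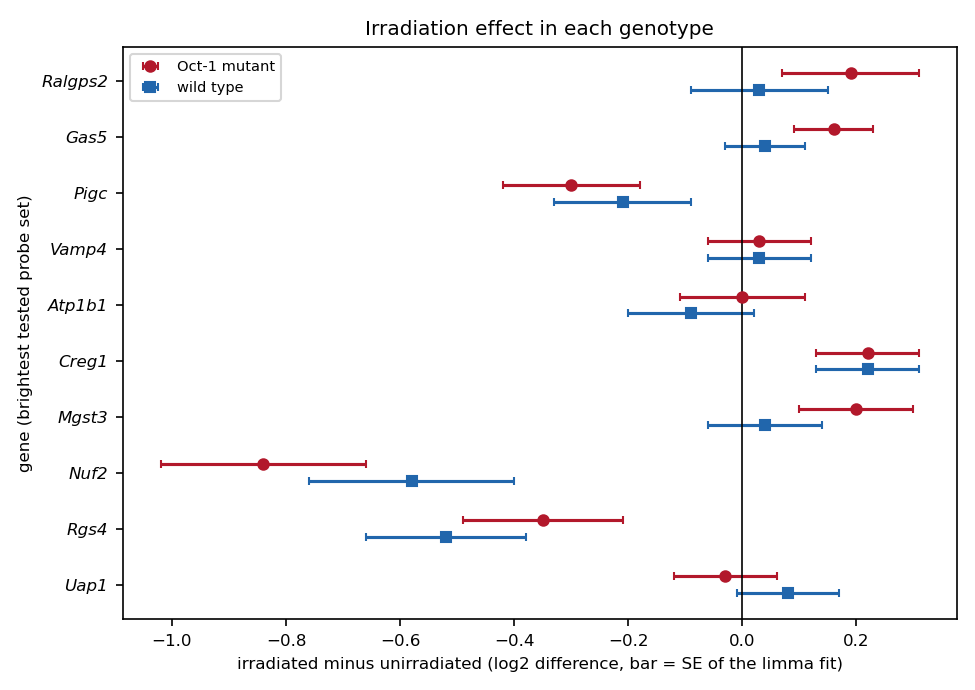
Irradiation effect (irradiated minus unirradiated, log2) on the brightest tested probe set of each of the 10 genes in Oct-1 mutant and wild type cells; bars are the SE of the limma model. Nuf2 and Rgs4 lie below 0 and Creg1 above 0 in both genotypes, and the effects of the 2 genotypes lie within 0.26 of each other.

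The remaining 7 genes did not pass the test for irradiation. Pigc differed by -0.26 (SE 0.09, adjusted p = 0.0664 in limma), and it was called with the replicate block (adjusted p = 0.0127 in limma). The 4 Gas5 probe sets split again into the same pairs: the brighter ones differed by 0.10 and 0.08 and the dimmer ones by -0.29 and -0.34, with adjusted p of 0.245, 0.472, 0.155 and 0.162 in limma. With the block, the probe set next to the dimmest was called as lower after irradiation (adjusted p = 0.0047 in limma) and the brightest was not (adjusted p = 0.144 in limma). The dimmest differed by -0.68 within replicates 1 and 2 (adjusted p = 0.00194 in limma) and by 0.00 within replicates 3 and 4 (adjusted p = 0.993 in limma). With the block, 6 of the 22 tested probe sets were called for the averaged irradiation effect, against 25.2% of array A probe sets. They belonged to 5 of the 10 genes (Creg1, Gas5, Nuf2, Pigc and Rgs4). In wild type cells alone, 3 of the 22 probe sets, of Gas5, Nuf2 and Rgs4, were called with the block, against 10.4% of array A. Ralgps2, Vamp4, Atp1b1, Mgst3 and Uap1 had irradiation differences between -0.05 and 0.12 on their brightest probe sets.

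Genes that work with the 10 were taken from lists, 1 probe set per gene, and listed genes without a tested probe set were left out. Genes with no tested probe set on array A were read on array B, which was fitted and adjusted separately. The array A shares do not cover those genes, among them Rgs12, Rgs2 and Exoc2 named below. Beside each count below stand the array A shares: 12.8% called for irradiation, 7.38% higher and 5.47% lower. For genotype the shares were 10.6%, 6.57% higher and 4.02% lower. No list was tested as a set. Among 16 other kinetochore genes, 4 fell and 2 rose after irradiation and 10 did not pass, with a median of -0.17. Ttk, a checkpoint kinase, had a mean of 7.96 in irradiated and 8.68 in unirradiated cells (-0.72, adjusted p = 1.49e-05 in limma), and Bub1b, another spindle checkpoint protein, 8.03 in irradiated and 9.05 in unirradiated cells (-1.02, adjusted p = 2.53e-05 in limma). The other 4 called genes are named after their values were seen. Of these, Cenpa fell by 0.63 and Cenpt and Spc25 rose by 0.42 and 0.20. Ndc80, the direct partner of Nuf2, had a mean of 7.58 in irradiated and 8.11 in unirradiated cells (-0.53, adjusted p = 0.000495 in limma). For genotype, 0 of these 16 genes were called, against 10.6% of array A, and Ndc80 differed by -0.05 where Nuf2 differed by -0.76. The kinetochore list thus held 4 called falls and 2 called rises after irradiation beside Nuf2. For genotype, 0 of 16 genes is near the array A share of 10.6%, and nothing is read from it.

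Among 8 other RGS genes, 4 rose after irradiation, 0 fell and 4 did not pass, with a median of 0.17, where 12.8% of array A was called. Rgs12, with a mean of 9.2 in irradiated and 8.22 in unirradiated cells, rose by 0.98 (adjusted p = 0.000174 in limma), and Rgs3, at 8.42 in irradiated and 7.93 in unirradiated cells, rose by 0.49 (adjusted p = 0.000258 in limma), and the other 2, named after their values were seen, were Rgs10 (0.38) and Rgs16 (0.30). Rgs4 was the only gene of this family list called as lower after irradiation. Rgs2, Rgs19 and Rgs14 differed by -0.27, -0.11 and -0.01 without passing. For genotype, 0 of the other 8 were called. Among 16 other host genes of small nucleolar RNAs, 0 were called for irradiation, and 1 (Snhg8, by 0.36) was called for genotype, higher in mutant cells, the opposite direction to Gas5. The median genotype difference of these host genes was -0.07.

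The 11 other glutathione transferase genes gave 7 called for genotype, all higher in mutant cells, with a median of 0.36, where 6.57% of array A was called higher. The 7 were Gstk1 (1.23), Mgst1 (0.98), Gstm2 (0.78), Gstm1 (0.49), Ptges (0.46), Gsta4 (0.36) and Gstm5 (0.30). Mgst3 itself differed by 0.25. After irradiation 3 of the 11 rose, Gstm1 and Gstm5 by 0.24 and 0.20 and Ptges most. Ptges, a prostaglandin E synthase of the same membrane protein family as Mgst3, had a mean of 8.09 in irradiated and 7.48 in unirradiated cells (0.61, adjusted p = 0.00343 in limma). Of 22 other genes of glycolipid anchor synthesis, 1 rose after irradiation: Pigf, at 8.97 in irradiated and 7.79 in unirradiated cells (1.18, adjusted p = 2.17e-06 in limma). For genotype, 2 of these 22, Dpm1 (0.17) and Pigp (0.27), were called, both higher. Of 12 other genes of the endosome and lysosome listed with Creg1, 3 rose after irradiation: Npc2 (0.16), Ctsb (0.22) and the protease Ctsd, at 12.21 in irradiated and 11.92 in unirradiated cells (0.29, adjusted p = 0.0207 in limma), and 0 were called for genotype.

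The lists of Uap1, Atp1b1, Vamp4 and Ralgps2 held few called genes, and those called for genotype in any list are named after their values were seen. Of 9 other genes that make or use UDP-GlcNAc, 2 fell after irradiation, Gnpnat1 (-0.20) and Ogt, the enzyme that adds the sugar to nuclear and cytosolic proteins, at 8.56 in irradiated and 8.96 in unirradiated cells (-0.40, adjusted p = 0.0222 in limma). For genotype, Nagk (0.32) was higher and Dpagt1 (-0.23) lower in mutant cells. Of 5 other subunits and regulators of the sodium and potassium pump, 0 were called for irradiation and 1 for genotype, Fxyd6, which was higher by 2.53 in mutant cells where Atp1b1 was lower. Of 17 other SNARE genes, 2 (Napa and Stx12, by 0.18 and 0.17) rose after irradiation, and for genotype Vamp3 was higher (0.48) and Vamp7 lower (-0.67). Of 10 other Ral genes, 1 rose after irradiation (Exoc2, an exocyst subunit, by 0.42, adjusted p = 0.000619 in limma), and 1 (Rgl2, -0.41) was lower in mutant cells.

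The position of the 10 genes was set against that of the measured genes around Pou2f1, 100 on each side in the gene order of GRCm38.p6. Before Pou2f1, in order of distance, Creg1 is 2, Atp1b1 15, Vamp4 34, Pigc 37, Gas5 46 and Ralgps2 68 measured genes away, and after it Mgst3 is 11, Nuf2 15, Rgs4 17 and Uap1 21 away. Of the 200 neighbours, 125 had a tested probe set and 22 of these (17.6%) were called for genotype, the 10 genes included. Within 25 genes of Pou2f1 the share was 9 of 35 (25.7%), at 26 to 50 genes 5 of 33 (15.2%), at 51 to 75 genes 5 of 29 (17.2%) and at 76 to 100 genes 3 of 28 (10.7%). It was 80 of 602 (13.3%) on the rest of chromosome 1 and 1207 of 11771 (10.3%) on other chromosomes. The shares include the genes that were chosen for their call and rest on few genes per distance, so they are given as a description.

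The other 12 called neighbours were 5 higher and 7 lower in mutant cells. The largest difference was that of Ifi202b, an interferon-inducible gene 94 measured genes after Pou2f1, which ranged over 8.16 to 9.18 in mutant cells and over 3.49 to 4.01 in wild type cells, a difference of 4.76. Ildr2, a membrane protein gene 4 measured genes after Pou2f1 and read on array B, ranged over 5.52 to 6.39 in mutant cells and over 5.02 to 5.16 in wild type cells, a difference of 0.88. The next in order of p were Mrps14 (-0.44), Qsox1 (-0.31) and Hsd17b7 (0.41), which are of the size seen in the 7 genes with small differences above. They were followed by Uhmk1 (-0.39), Abl2 (-0.57), Rabgap1l (0.46), Pex19 (-0.49) and Nit1 (-0.21). Each value is from the probe set with the smallest p. The called probe set was 1 of 4 tested for Rabgap1l, 1 of 3 for Mrps14, Hsd17b7, Uhmk1 and Pex19, and 1 of 2 for Qsox1 and Abl2. On the brightest tested probe set, array A first, Pex19 differed by 0.01, Abl2 by -0.28 and Hsd17b7 by 0.37. Called genes thus lay on both sides of Pou2f1 and in both directions, with uncalled genes between them.

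**Figure D5:**
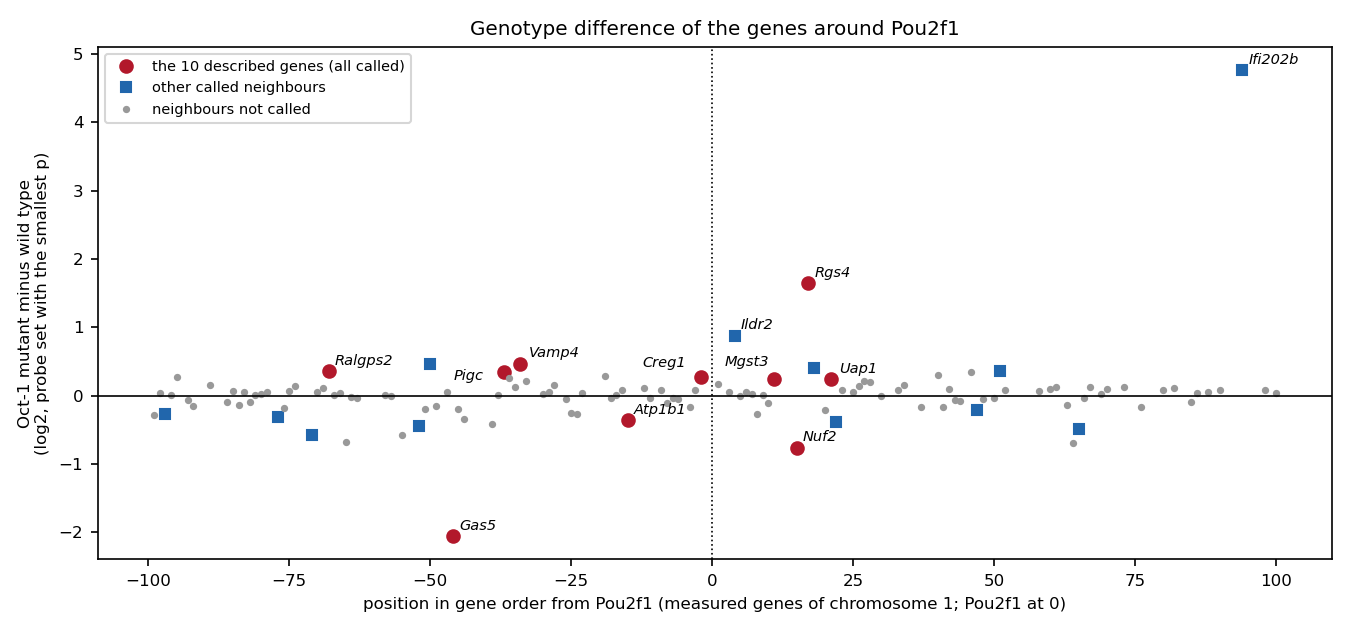
Averaged genotype difference (Oct-1 mutant minus wild type, log2) of the tested genes among the 100 measured genes on each side of Pou2f1, by their position in gene order, each shown by its probe set with the smallest p. The 10 described genes are large circles, the 12 other called genes squares and uncalled genes small points, and called genes lie among uncalled ones on both sides.

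The profiles most like those of the 3 genes with the largest differences on their brightest probe sets came from other chromosomes. Over the 16 extracts, Rgs4 correlated best with Cyp1b1 (Pearson r = 0.98), Lgr5 (0.965) and Peg3 (0.962). Nuf2 correlated best with Kif23 (0.935), a kinesin of cytokinesis, Ift74 (0.905) and Irx3 (0.901), and Gas5 with Col2a1 (0.966), Xist (0.961) and Smoc2 (0.96). The probe sets of Kif23, Ift74 and Irx3 had averaged genotype differences of -1.06, -0.23 and -0.58. These correlations hold the genotype and irradiation differences within them and are given as a description. Because Xist, the RNA of the inactive X chromosome, appeared in that search, sex-linked transcripts were looked up after the values were seen. The brightest Xist probe set ranged over 3.16 to 3.29 with a median of 3.25 in the 8 mutant extracts and over 8.19 to 9.78 with a median of 9.28 in the 8 wild type extracts. Eif2s3y, a gene of the Y chromosome, ranged over 8.46 to 9.32 with a median of 8.86 in mutant and over 3.0 to 4.02 with a median of 3.26 in wild type extracts. The brightest probe set of the Y-linked gene Uty was higher in mutant extracts but overlapped, at 4.28 to 5.91 in mutant and 3.44 to 4.32 in wild type extracts. The other Uty probe set did not overlap, at 4.07 to 5.84 in mutant and 2.64 to 2.97 in wild type extracts. For Kdm5d, 1 of 3 probe sets separated the genotypes and 2 differed by 0.05 and 0.01. Because Xist and Eif2s3y did not overlap between genotypes, the mutant allele, DNA linked to it and the sex of the embryos cannot be told apart for any genotype difference given here.

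The cells were checked against markers of their labelled type. All 12 fibroblast markers were above the filter, with a summed level of 16.6 to 17.0 in mutant and 16.54 to 16.75 in wild type extracts. Of the 12, 4 were called higher in mutant cells and 0 lower, where 6.57% of array A was called higher. The 4 were Dcn (2.01), Lum (1.46), Pdgfra (0.49) and Thy1 (0.49), so the genotypes differed on single fibroblast markers although the sums overlapped. Of markers of other cell types, 3 of 7 for macrophages and blood, 0 of 5 for endothelium, 2 of 5 for epithelium, 1 of 5 for skeletal muscle, 4 of 5 for neural cells and 2 of 3 for adipocytes were above the filter. The summed levels of these lists overlapped between the genotypes, and 1 epithelial marker was called higher and 1 adipocyte marker lower in mutant cells. Their part in the differences of the 10 genes was not tested, and in bulk RNA fewer cells of a type and less RNA per cell cannot be told apart.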

How the data were processed

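The authors deposited 1 table of log2 probe set values for each of the 2 array types, with 22690 probe sets on array A and 22575 on array B (64 controls on each), and not given in the sources used here is how they summarised and scaled the values. The log base was taken from the range of these deposited values, 0.265 to 15.75 for array A and 0.0973 to 15.51 for array B. Array medians lay at 6.16 to 6.28 and 3.67 to 3.78, so nothing was rescaled. Within groups, extracts correlated with r of 0.9916 to 0.9983 (array A) or 0.9849 to 0.9975 (array B), and 0 columns were identical. The replicate number missing from 1 array A label (mutant unirradiated replicate 1) comes from the label of the same title number on array B.

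Platform annotation named 1 gene for 20393 and 14674 probe sets, several for 691 and 245 and none for 1606 and 7656. Symbols were updated through gene IDs for 20364 and 14499. Controls and probe sets with a mean under the 40th percentile (4.96 on array A, 3.36 on array B) were left out, which left 13582 and 13502. Each array type was fitted with limma 3.58.1 in R 4.3.3 (lmFit and eBayes with a variance trend, 4 group means, all 16 arrays), with Benjamini-Hochberg adjustment over the array type and a call at 0.05. Tables and figures used Python 3.11.15, numpy 2.4.6, pandas 2.3.3 and matplotlib 3.10.9.

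Replicates 1 and 2 carry 1 run of title numbers and replicates 3 and 4 another, 2 runs in all. Deviations from group means correlated at 0.32 to 0.72 (median 0.58) between extracts of the same number on array A and at 0.24 to 0.6 (median 0.44) on array B. Extracts of the same run with another number correlated at medians of 0.56 and 0.4, and those of different runs at -0.71 to -0.27 and -0.59 to -0.18. All same-number pairs were above 0.1, so blocked results are given where they change a call of the averaged effects or a count of genes. Because other extracts of the same run correlated nearly as highly, the data show a shift between runs and do not single out pairs by number. The replicate numbers come from the labels, which do not say that extracts of the same number were handled together.

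The genes and the lists were chosen with earlier results of these data known. All 10 genes are named with all their probe sets, and a gene is represented by its brightest tested probe set. Of the lists, 2 genes called for irradiation are named by smallest adjusted p, and further called genes were named after their values were seen. Of other neighbours, at most 10 are named. Alternatives were other filters, quantile normalization, median centring, no variance trend, a replicate or run block, each run alone and each extract left out.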

Additional observations from a re-analysis of the deposited data

Results flagged for a closer look

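Among the 88 groups of 4 extracts formed by the 22 tested probe sets, 7 held an extract further from its group than Dixon's 95% critical value allows, where chance gives about 1 group in 20. Unirradiated Oct-1 mutant replicate 1 was high for Ralgps2, at 5.62 with the nearest of its group at 5.15, and for Nuf2, at 8.9 with the nearest at 8.54. Unirradiated mutant replicate 2 was low on the dimmest Atp1b1 probe set, at 4.98 with the nearest at 5.23. Among irradiated mutant extracts, Vamp4 was high in replicate 1, at 9.21 against 9.06, and the third brightest Atp1b1 probe set was high in replicate 2, at 9.09 against 8.87. In wild type cells, the dimmest Gas5 probe set was high in unirradiated replicate 3, at 9.13 against 8.68, and Rgs4 was low in irradiated replicate 1, at 6.8 against 7.19. Without that last extract, Rgs4 was no longer called for irradiation in wild type cells.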

How the results depend on the processing

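No difference called on a brightest probe set, averaged over the other factor, turned its sign. Uncalled irradiation differences near 0 did: Atp1b1 (-0.05) was 0.01 and Uap1 (0.02) was -0.03 within replicates 1 and 2, and Uap1 was -0.01 without mutant irradiated replicate 1 or unirradiated replicate 4. With the replicate block, array A calls came to 3060 for averaged genotype (1439 without), 1418 in irradiated (516) and 1506 in unirradiated cells (526), 3418 for averaged irradiation (1745), 1737 in mutant (632) and 1410 in wild type cells (521). Of the 10 genes, the block called 7 for genotype in irradiated (3 without) and 8 in unirradiated cells (2), 5 for averaged irradiation (3) and 3 in wild type cells (1). A block for the run gave array counts of 3034, 1405, 1472, 3391, 1703 and 1389 and gene counts of 7, 8, 5 and 3 in the same order. Within replicates 3 and 4 alone, 5 genes were called for genotype in irradiated and 5 in unirradiated cells (587 and 649 probe sets of array A) and 1 for irradiation, against 2, 2 (497 and 488 probe sets) and 3 within replicates 1 and 2. Irradiation within replicates 3 and 4 called 1145 probe sets averaged, 349 in mutant and 346 in wild type cells. With the 20th percentile filter or no filter, 0 of the 10 genes were called for irradiation in wild type cells. For averaged genotype, 8 genes were called with no filter and 9 with the 20th percentile filter, quantile normalization or median centring. Replicates 1 and 2 alone called 8, and replicates 3 and 4 alone also 8. Mgst3 was not called with no filter (adjusted p = 0.0652 in limma) or the 20th percentile filter (adjusted p = 0.052 in limma).

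Leaving out 1 extract at a time gave array counts of 1151 to 1436 for averaged genotype, 356 to 531 and 343 to 517 in irradiated and unirradiated cells, 1460 to 1882 for averaged irradiation, and 432 to 704 and 362 to 532 in mutant and wild type cells. Gene counts were 8 to 10, 3 to 5, 2 to 4, 2 to 3, 1 to 1 and 0 to 1 in the same order. The higher gene counts in single states came without mutant unirradiated replicate 1 (5 in irradiated, 4 in unirradiated cells) and wild type irradiated replicate 2 (4 in unirradiated cells), and the lowest array counts in unirradiated cells without wild type unirradiated replicates 1 (344) and 2 (343). The interaction stayed at 0 to 0. Creg1's irradiation call was also lost with quantile normalization (adjusted p 0.0537) and median centring (0.0545). Pigc's was gained with both blocks and without wild type irradiated replicate 3 (0.0305). The causes were not tested.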
